A study of Oryza sativa with 18 samples.

Results

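In a rice chromatin accessibility atlas, 4 columns carried a xylem precursor or developing xylem label in the shoot, out of 128 columns of cell states. They were the xylem precursor of the axillary bud, the developing xylem of the axillary bud, the xylem precursor of the early seedling and the developing xylem of the seedling. These 4 were taken by the exact name of the cell state in the column name, and each was set against the mean of the other cell states of its own organ. The atlas held 18 libraries of sorted nuclei from 9 organ groups of the genotype Nipponbare, a japonica rice, taken fresh and with no treatment named. Nuclei were sorted by fluorescence, and 16000 per library went into a droplet kit for the single-cell assay for transposase-accessible chromatin, in which a transposase cuts open DNA and so marks regions that regulatory proteins can reach. Axillary bud, early seedling and seedling had 2 libraries each, and both seedling groups carried the tissue label Seedling. No age was given in the labels.

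Xylem is the tissue that carries water and minerals upward from the root. In a grass shoot it arises from procambium, the dividing strand of a young vascular bundle, which also gives phloem, and rice bundles keep no cambium for later growth. A xylem precursor that has left the procambium lays down a patterned secondary wall of cellulose, xylan and lignin and then dies, leaving a hollow conducting element. Protoxylem forms first, in organs that still elongate, and metaxylem with wider elements forms later. In Arabidopsis, NAC factors of the VND group and MYB factors below them switch on the wall genes, and class III HD-ZIP factors set the xylem side of the bundle.

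The atlas gave 1 value for each of 128764 regions in each cell state, the authors' log2 of CPM, a read count scaled to the total of the column, and every region had the same width. One column pooled the nuclei of a state over the libraries of its organ, so no column had a replicate, and differences between 2 columns carry no p-value. Differences were taken on the log2(CPM + 1) scale, which understates the change of regions with low CPM, and a difference above 1 on that scale is called higher or lower throughout. A region was tested in an organ when at least 1 state of that organ reached a CPM of 1. The genome build of the coordinates was not given in the sources used here, so regions are named by position and were not assigned to genes. For that reason the xylem labels were not checked against marker genes, and the label is the authors' own.

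Depth per column was unknown. A stand-in was the count of different values a column takes, since a state with few reads takes few levels; these are called distinct values. The bud precursor had 411 distinct values, the bud developing xylem 121, the early seedling precursor 105 and the seedling developing xylem 136. Across all 128 columns the number ran from 51 to 2587 with a median of 402.5. The bud developing xylem was thus the shallowest of the 14 bud states by this measure, where the other states ran from 297 to 1842, and its precursor lay inside their range.

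Each xylem state was higher than its organ in a few percent of the regions. The bud precursor was higher in 1659 of 127396 regions (1.3%) and lower in 457 (0.359%). The bud developing xylem was higher in 5376 (4.22%) and lower in 2323 (1.82%), the largest number of higher regions among the 14 bud states. The bud precursor ranked 10th of them. For the early seedling precursor 6305 of 128668 regions were higher (4.9%) and 6645 were lower (5.16%). In the seedling developing xylem 6726 of 128436 were higher (5.24%) and 5910 were lower (4.6%). The early seedling precursor ranked 13th of 19 states and the seedling developing xylem 6th of 17 for higher regions. Columns with few distinct values are spread toward the higher counts in the plot of higher regions by column, and the part of depth in these counts was not tested. The balance of higher to lower moved with the constant added to the CPM: higher regions made up 78.4% of the bud precursor's differences and 69.8% of the bud developing xylem's with 1 added, against 48.6% and 56.0% with 0.1 added. With 5 added the shares were 100% and 98.4% in bud, 79.8% in the early seedling precursor and 83.8% in the seedling developing xylem. With 1 added the seedling columns stood at 48.7% and 53.2%. With 0.1 added the higher regions numbered 3601 and 9801 in the bud columns, 11577 in the early seedling precursor and 11394 in the seedling developing xylem.

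**Figure D1:**
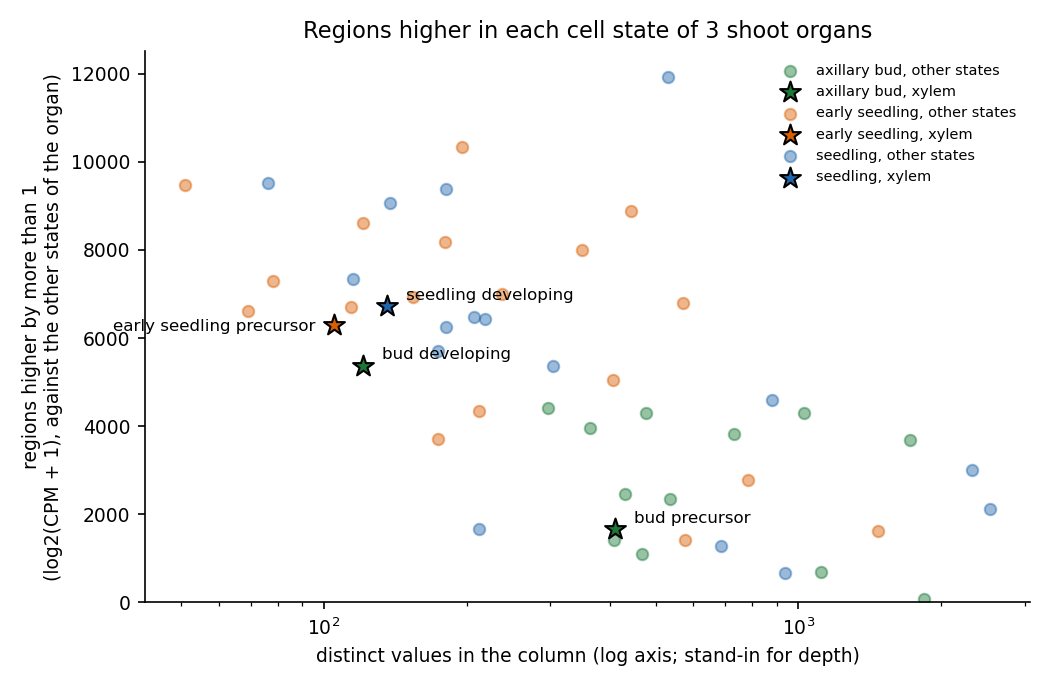
Number of regions higher by more than 1 on the log2(CPM + 1) scale (vertical axis) against the number of distinct values in the column (horizontal log axis, a stand-in for depth) for every cell state of axillary bud, early seedling and seedling. Stars are the 4 xylem states; the bud precursor lies low at 1659 regions with 411 distinct values, and the other 3 lie between 5376 and 6726 regions with 105 to 136 distinct values.

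The nearest columns to each xylem column included vascular states of bud and states of the panicle. Levels were compared by Pearson correlation across regions, a description over points that share the authors' processing. The bud precursor was closest to the bud vascular cell (r = 0.952), the panicle state named PBM (0.95), the bud phloem precursor (0.947) and the bud procambial meristem (0.937). The other xylem columns ranked 10th, 15th and 16th for it, from 0.917 to 0.911, behind panicle SM (0.937), bud bundle sheath (0.933) and other panicle states. The bud developing xylem was closest to the bud precursor (0.917), followed by the bud procambial meristem (0.914) and the bud vascular cell (0.909). The early seedling precursor was closest to the bud precursor (0.911), a column from other libraries, ahead of the vascular cell of its own organ (0.893). The seedling developing xylem was likewise closest to the bud precursor (0.911), ahead of the bud developing xylem (0.901) and of the vascular cell of its own organ (0.897). For both seedling columns a bud xylem column from other libraries was therefore nearer in level than any other state of their own organ. The bud precursor is also the deepest of the 4 by distinct values, and the part of depth was not tested.

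The differences from the organ could be set side by side between organs, where the states compared with were not shared. Their order was not that of the levels. Over 128764 regions the bud precursor's difference correlated with that of the seedling developing xylem at r = 0.469 and with that of the early seedling precursor at 0.439, the 1st and 2nd of 114 states of other organs. The bud developing xylem's closest state outside the bud was the seedling developing xylem, at 0.413, with panicle PBM next at 0.402. The early seedling precursor and the seedling developing xylem were each other's closest state outside their own organ, at 0.578. The bud precursor ranked 3rd for the early seedling precursor, behind the seedling procambial meristem at 0.453. For the seedling developing xylem it ranked 4th, behind the crown root procambial meristem (0.488) and panicle PBM (0.482), and the bud developing xylem ranked 7th. With root protoxylem the correlation was -0.248 in crown root and -0.277 in seminal root for the seedling developing xylem, between -0.297 and -0.128 for both precursors, and 0.0265 and 0.0241 for the bud developing xylem.

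Regions raised in one xylem state were often raised in another. Of the bud precursor's 1659 higher regions, 1404 were also higher in the seedling developing xylem, 84.6% against 5.28% of all regions. In the early seedling precursor 1334 of them were higher, 80.4% against 4.94% of all regions. No other bud state shared so large a part of its higher regions with these columns, and the bud procambial meristem came next with 61.3% and 51.6%. The bud developing xylem shared less of its longer list: 50.9% was higher in the seedling developing xylem and 36.8% in the early seedling precursor, 3rd and 5th among the bud states. Read the other way, 40.8% of the seedling developing xylem's higher regions were higher in the bud developing xylem, against 4.22% of all regions. In the bud precursor 20.9% of them were higher, against 1.30% of all regions. Of the early seedling precursor's higher regions, 60% were higher in the seedling developing xylem, against 5.28% of all regions.

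A test with limma used 1 difference per organ, with bud as the mean of its 2 xylem columns. It asked how large the mean difference over axillary bud, early seedling and seedling was beside its spread. At an adjusted p of 0.05, two-sided and corrected by Benjamini-Hochberg over 127219 regions, 8733 were higher (6.86%) and 6336 were lower (4.98%) in xylem. The median difference of those called was 0.93 for the higher and -0.80 for the lower on the log2(CPM + 1) scale, so most differed by less than the size used for the counts above. The spread came from 3 organs with much of it borrowed across regions. A call therefore rests on the size of the difference too, and does not show that the 3 organs were alike at that region. The authors gave the label to the same nuclei, so a call is no separate evidence for the label. Without the seedling the calls fell to 4376 higher and 1707 lower, and with early seedling and seedling averaged to 1 value they were 6695 and 3033. Without the early seedling there were 7252 higher and 3850 lower, without bud 9726 and 9552, and with the median of the other states as reference 4021 lower.

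By size the counts in all 4 columns were unequal. Higher by more than 1 in all 4 xylem columns were 861 regions (0.677%), and lower by more than 1 in all 4 were 2 (0.00157%). The 861 regions are called the shoot xylem regions below. Regions higher in 3 of the 4 columns numbered 1406, in 2 columns 2871, in 1 column 6634 and in none 115447. Lower in 3 columns were 107, in 2 columns 2030 and in 1 column 10926, more in that last class than were higher. With no limit on size, 16757 regions were above their organ in all 4 columns and 17247 below it. Among regions higher in a single pair of columns, 1632 belonged to the early seedling precursor with the seedling developing xylem and 854 to both developing columns. The bud precursor with the bud developing xylem alone accounted for 43. Where the lowest of the 4 differences fell nearest the limit, the last region inside had 1.00187 and the first outside 0.998195. Without bud, 3772 regions were higher in both seedling columns and 1706 were lower, but then only 2 columns in place of 4 had to pass. Adding 5 in place of 1 to the CPM left 141 regions, all of them among the 861, and adding 0.1 gave 1420. On the deposited log2 scale 1529 were higher in all 4 columns and 63 were lower.

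Shoot xylem regions rested on readable levels in most cases. Their median CPM was 12.5 in the bud precursor, 15.3 in the bud developing xylem, 14.0 in the early seedling precursor and 16.2 in the seedling developing xylem. The median over the other states was 3.55 in bud, 2.43 in early seedling and 2.43 in seedling. In 790 of the 861 the CPM was at least 5 in each of the 4 columns. Over all other states of the atlas their mean CPM had a median of 3.50, against 5.18 for all regions tested. The column with the highest CPM of all 128 was one of the 4 in 582 regions (67.6%, against 2.51% of all regions), which the choice of the regions favours: the seedling developing xylem in 251, the bud developing xylem in 189, the early seedling precursor in 109 and the bud precursor in 33. The states that held the highest value most often otherwise were the seminal root procambial meristem with 24 and panicle PBM with 23.

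The region with the largest of the lowest differences lay on chromosome 3 at 8456746 to 8457246. Its CPM was 19.8 in the bud precursor, 28.6 in the bud developing xylem, 19.0 in the early seedling precursor and 24.1 in the seedling developing xylem. In the other states of these organs its CPM ran from 0.988 to 4.85 with a median of 2.43 in bud, from 0.434 to 7.97 in early seedling and from 0.608 to 8.74 in seedling. All 4 xylem columns lay above every other state of the shoot organs, and the differences from the organ were 2.38, 2.92, 2.76 and 2.88. Outside these organs the next highest level was 16 CPM in the central endosperm of the late seed, a storage tissue, followed by 9.40 in panicle PBM.

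A second region of the same chromosome, at 6123460 to 6123960, had the cleanest separation of the 10 with the largest lowest difference. There the CPM was 15.3 in the bud precursor, 29.1 in the bud developing xylem, 22.7 in the early seedling precursor and 25.5 in the seedling developing xylem. Across all columns outside the xylem 4 it reached at most 7.87, in the seminal root procambial meristem, with 7.81 in that of the crown root and a median of 1.76. Every xylem column thus lay above every other column of the atlas, and the authors' list named the region for all 4 xylem states.

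Other regions of this group were shared with other states to differing degrees. On chromosome 10 at 18143117 to 18143617 the CPM was 19.2, 20.2, 19.0 and 23.2, in the order bud precursor, bud developing, early seedling precursor, seedling developing. Panicle PBM followed with 14.3 and the bud procambial meristem with 12.9, so the 4 xylem columns remained on top. On chromosome 5 at 18463186 to 18463686 the CPM was 24.9, 32.1, 15.8 and 17.2 in the same order. The bud procambial meristem reached 24.1 there, level with the bud precursor and above both seedling columns. Another case, chromosome 7 at 27808363 to 27808863, had 10.4, 9.54, 10.3 and 10.4, nearly one level in the 4 columns. Panicle PBM exceeded all of them with 11.8, while the bud procambial meristem had 5.02. On chromosome 3 at 7243097 to 7243597 the CPM was 22.6, 24.6, 16.5 and 14.4, and panicle PBM with 20.4 lay between the bud and the seedling columns.

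**Figure D2:**
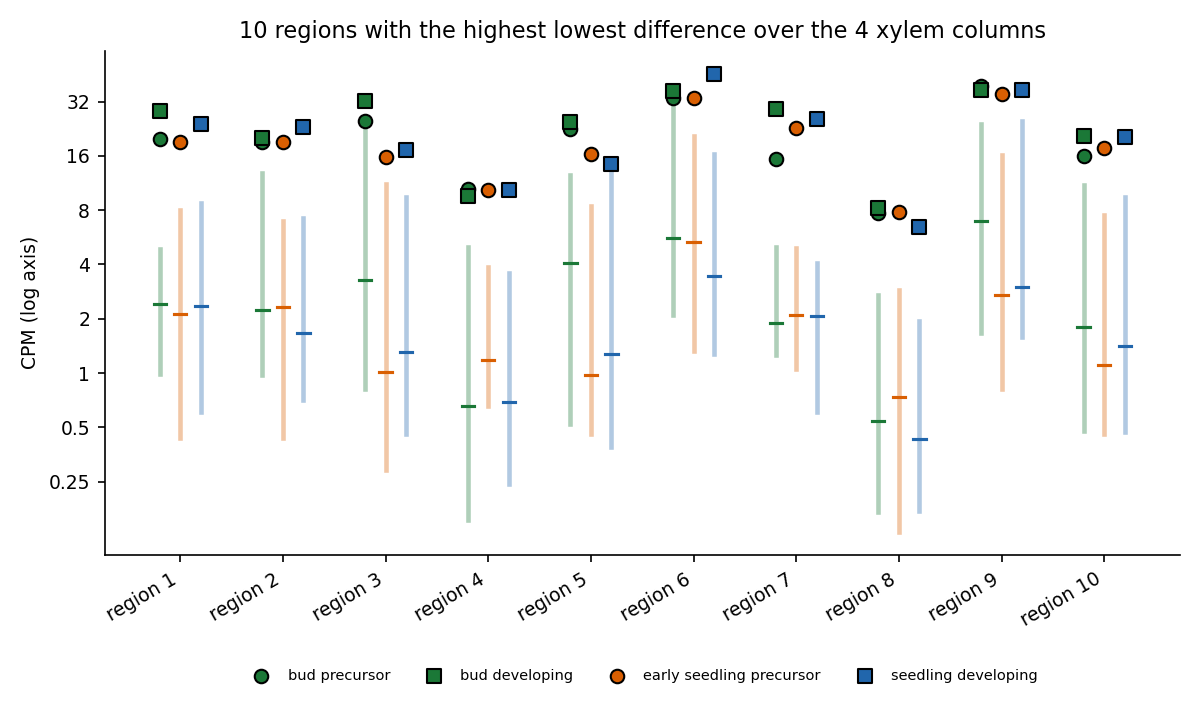
CPM (log axis) of shoot xylem regions in the 4 xylem columns (coloured points), with bars from the lowest to the highest other cell state of each organ and a tick at the median of those states, for the 10 regions with the highest value of their lowest difference. In the region with the largest lowest difference the 4 points lie between 19.0 and 28.6 CPM and above all 3 bars.

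A single value per state cannot separate more accessible nuclei from more nuclei of a kind within the labelled state, and this holds for all levels given here. The reverse direction was rare at this size. On chromosome 12 at 1422037 to 1422537 the CPM was 0.539 in the bud precursor, 0.374 in the bud developing xylem, 1.42 in the early seedling precursor and 0.856 in the seedling developing xylem. Its median over the other states was 2.98 in bud, 2.88 in early seedling and 2.69 in seedling, and leaf bulliform cells, large water-storing cells of the grass epidermis, reached 19.1. On chromosome 5 at 19402176 to 19402676 the xylem CPM was 1.19, 0.763, 1.42 and 1.77 in the same order, against 20.3 in the early seedling epidermis and 15.5 in the seedling epidermis. All of these xylem levels lay at or below 1.77 CPM.

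Libraries of the other organs took no part in choosing the shoot xylem regions. All columns had nearly one distribution, so the authors may have normalised them together, but the step was not stated. For the columns of other organs and the other shoot columns the comparison was with the other states of the organ. The xylem columns were left out of that reference. Panicle PBM had the largest median difference, 1.24, and 69.7% of the shoot xylem regions were higher there against 1.94% of all regions. The root procambial meristems followed. In crown root the median difference was 1.03 and 52.3% of the regions were higher (4.63% of all), and in seminal root 1.0 and 50.3% (4.11% of all). Stele initials, the dividing cells that feed the root's vascular cylinder, had median differences of 0.70 in crown root and 0.69 in seminal root. In the shoot organs themselves the procambial meristem led with 1.04 in seedling, 0.90 in bud and 0.80 in early seedling, the last from a column of 69 distinct values.

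Root xylem was split by its kind. In developing metaxylem the median difference was 0.45 in crown root and 0.46 in seminal root. There 25.1% of the shoot xylem regions were higher in crown root against 4.81% of all regions, and 26.1% in seminal root against 5.6%. In developing protoxylem the median was -0.35 in crown root and -0.37 in seminal root, and 1.16% and 1.51% were higher, below the 3.38% and 4.02% of all regions. A difference above 0 of any size was seen in 75.8% of the shoot xylem regions in crown root metaxylem (exact binomial interval 72.8 to 78.7%, 95%) and in 75.4% in seminal root metaxylem (72.4 to 78.2%). For protoxylem the shares were 22.5% (19.8 to 25.5%) and 21.8% (19.1 to 24.7%). These intervals cover the count of regions only, and regions are not replicates. No share above 0 over all regions is set beside these shares, so by themselves they give no enrichment. Over the 84 regions that the authors' list named for all 4 shoot xylem states, the protoxylem shares were 11.9% and 14.3%. The share in seminal root metaxylem was lower there too, and fell below its interval given above.

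Set directly against each other in the same root, metaxylem exceeded protoxylem in most shoot xylem regions. In crown root the median CPM was 3.91 in metaxylem and 1.95 in protoxylem, and metaxylem was above protoxylem in 85.4% of the regions against 49.3% of all regions. In seminal root the medians were 4.39 and 1.95, and the share was 89.4% against 49.6%. Both root systems gave the same order from separate libraries.

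Xylem parenchyma, the living cells beside the vessels, did not share the shoot xylem regions to this degree. Its median difference was -0.11 in bud, 0.14 in early seedling and 0.15 in seedling, where the early seedling column had 51 distinct values. Fibre and sclerenchyma states, whose cells also build thick lignified walls, lay below 0: vascular sclerenchyma at -0.20 and -0.10 in the 2 seedling groups and developing fibre at -0.28 and -0.10. Vascular cell states were slightly above 0, from 0.16 in leaf to 0.33 in early seedling. The lowest bud states were an unnamed cluster at -0.62, the stomatal precursor at -0.53, the epidermis at -0.52 and the mesophyll, the photosynthetic tissue, at -0.50.

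**Figure D3:**
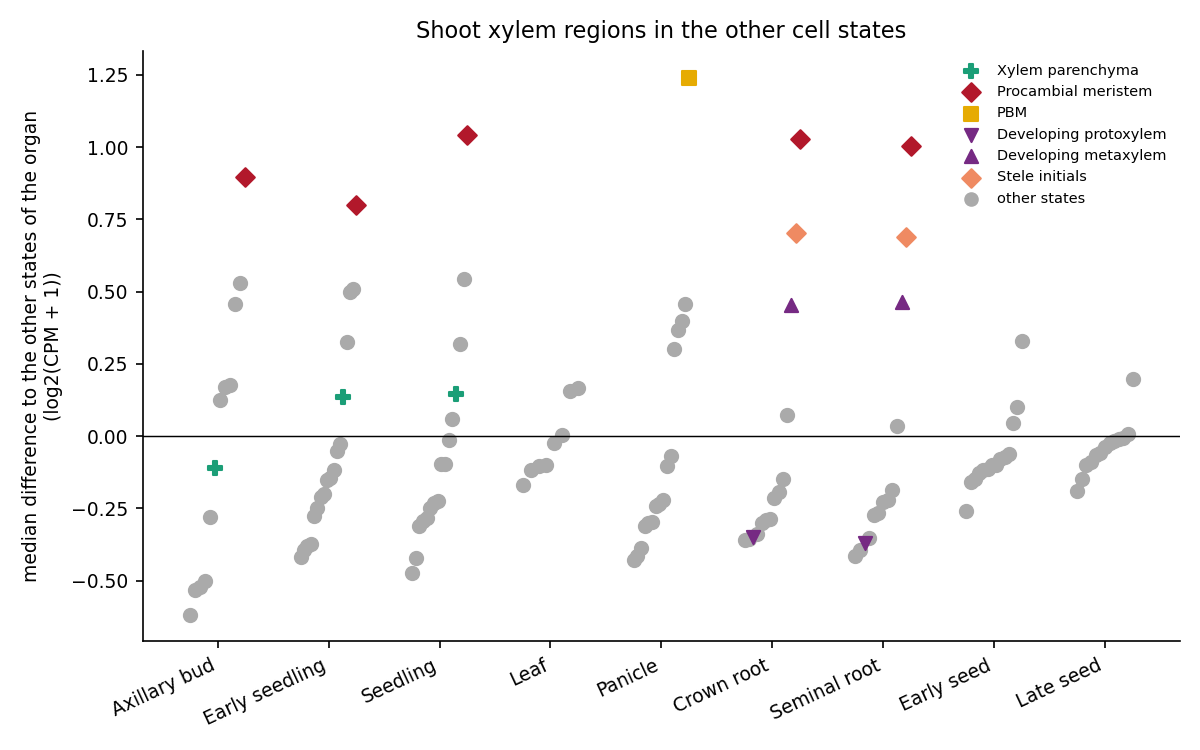
Median difference from the other states of the organ (log2(CPM + 1)) over the 861 shoot xylem regions, 1 point per cell state outside the 4 xylem columns, by organ. The 4 xylem columns were left out of the reference. Panicle PBM (1.24), the procambial meristems (0.80 to 1.04) and the root stele initials lie highest; root metaxylem lies above 0 and root protoxylem below it.

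Precursor and developing stage could be compared within one organ in bud. The developing xylem was higher by more than 1 in 4635 of 127396 regions (3.64%) and the precursor in 3028 (2.38%), each a comparison of 1 column with 1 column. Over all regions the difference, developing minus precursor, had a median of -0.02 and a standard deviation of 0.52. The columns differ in depth, with 121 distinct values against 411, and the part of depth was not tested. With 5 added to the CPM, 588 and 93 regions were beyond 1, which raised the developing share from 60.5% to 86.3%, and with 0.1 added 10773 and 8722 were. Asking for a CPM of at least 5 in the higher column left 2838 and 1423.

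Where the developing xylem was higher, the median CPM was 2.07 in the precursor and 6.97 in the developing xylem, against 2.49 in the other bud states. In 2177 of these 4635 regions the developing xylem was also higher than the bud mean. Where the precursor was higher, the median CPM was 4.67 in the precursor and 1.67 in the developing xylem, against 3.69 in the other bud states. In only 162 of these 3028 regions was the precursor higher than the bud mean, while in 1322 the developing xylem was lower than it. The regions were chosen on these same columns, so these counts are a description. The developing column had the fewer distinct values and the larger spread around the bud mean, with standard deviations of 0.515 against 0.356.

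The widest gap in favour of the developing xylem was on chromosome 1 at 9553036 to 9553536, with 2.07 CPM in the bud precursor and 22.1 in the bud developing xylem, a difference of 2.91. In seedling developing xylem it had 4.76 CPM and in the early seedling precursor 0.867. Other states were more accessible there, with 37.3 CPM in the seminal root procambial meristem and 35.1 in the crown root pericycle, the layer that gives rise to lateral roots. A region of chromosome 4 at 19261934 to 19262434 had 0.393 CPM in the bud precursor and 9.09 in the bud developing xylem, with 3.96 in the early seedling precursor and 6.45 in the seedling developing xylem. On chromosome 10 at 21419409 to 21419909 the bud columns had 1.34 and 14.9 CPM and the seedling columns 0.867 and 3.07. There the bud developing xylem was the highest of all columns, with the seminal root pericycle next at 14.6. The remaining pair of the first 5 lay on chromosome 1 at 30196785 to 30197285, with 2.25 and 19.6 CPM in bud, and on chromosome 3 at 2303931 to 2304431, with 0.943 and 11.3. In all 10 regions taken by this rule the seedling developing xylem exceeded the early seedling precursor, as it did in 47.8% of all regions. The gap was small in the region at 2303931, with 3.48 against 3.30 CPM. There, and in no other of the 10, the order turned over for the differences from the organ, 0.932 against 1.30.

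In favour of the precursor, chromosome 11 at 24238323 to 24238823 led with 6.31 CPM in the bud precursor and 0.374 in the developing xylem, a difference of -2.41. It was highest in stomatal precursors, at 18.5 in bud and 18.0 in seedling, and its median over the other bud states was 5.45. On chromosome 2 at 30368201 to 30368701 the bud columns had 12.6 and 1.67 CPM, while the early seedling precursor had 13.4 and the seedling developing xylem 13.5. The low value stood in the bud developing xylem alone among the 4. Likewise on chromosome 12 at 2375067 to 2375567 the CPM was 7.88 and 0.763 in bud against 7.85 and 6.05 in the seedling columns. On chromosome 1 at 29830822 to 29831322 the bud columns had 5.87 and 0.374 CPM and the seedling columns 13.4 and 9.52. On chromosome 3 at 33083416 to 33083916 they had 9.52 and 1.26 in bud and 8.47 and 6.89 in the seedlings. The bud developing column had 121 distinct values, and the same level of 0.374 CPM recurred in the chromosome 11 and chromosome 1 regions. Such low levels of this column may rest on few reads, which was not tested. The rule chose these regions for a low bud developing level, so its gap to the seedling developing xylem is a description. Of the 10 regions taken by the rule, 7 had the seedling developing xylem below the early seedling precursor and 3 above it. Over all regions it was below in 52.2%, so 7 of 10 is too few regions to read as a direction.

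The early seedling precursor and the seedling developing xylem gave a second view of stage from other libraries, in which stage and organ cannot be told apart. Of the 4635 regions higher in bud developing xylem, 67.7% were above 0 in seedling developing minus early seedling precursor, against 47.8% of all regions, with a median of 0.32. Beyond 1 were 722 of them (15.6%, against 4.83% of all regions) in the same direction and 103 in the opposite one. Of the 3028 regions higher in the bud precursor, 63% were below 0, against 52.2% of all regions, with a median of -0.16. Here 232 (7.66%, against 4.29% of all) were beyond 1 in the same direction and 101 in the opposite one. After the mean of the other states of each organ was subtracted, an alternative added after the data had been seen, the shares were 64.6% and 57.5%, against 49.6% and 50.4% of all regions. Across all regions the 2 stage differences correlated at r = 0.170, or 0.124 after the subtraction. These are differences between single columns of unknown depth, and the part of counting noise in them was not tested.

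**Figure D4:**
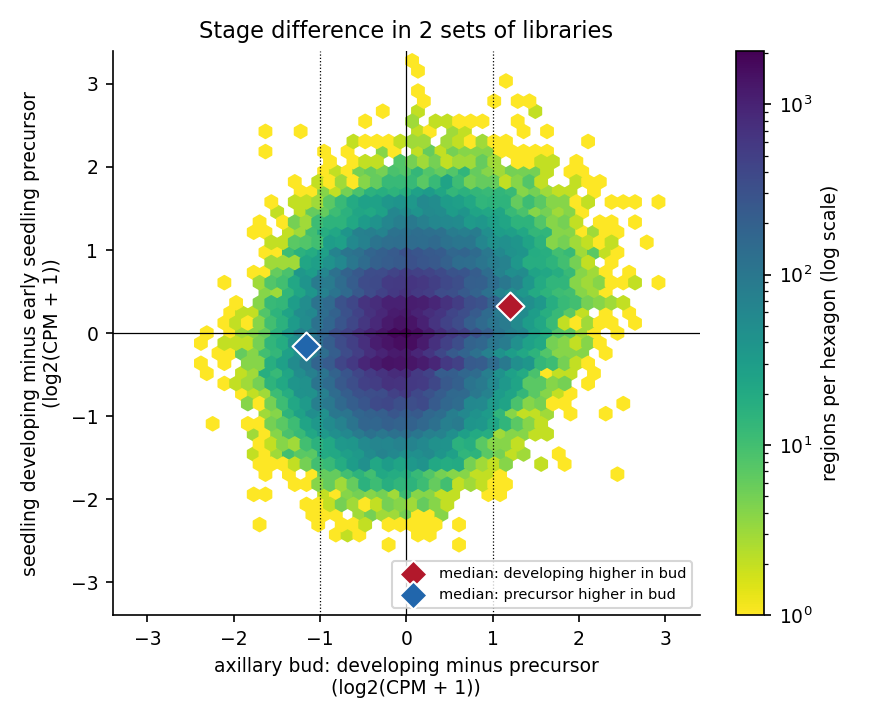
Developing minus precursor in bud (horizontal axis) against seedling developing xylem minus early seedling precursor (vertical axis), both on the log2(CPM + 1) scale, for every region as the number of regions per hexagon (log colour scale). Dotted lines mark differences of 1 in bud; the red marker is the median of the 4635 regions higher in bud developing xylem and lies at 0.32 on the vertical axis, the blue marker is that of the 3028 higher in the precursor and lies at -0.16.

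Other states that did not enter either stage column split the 2 sets. Their reference again left out the xylem columns. Regions higher in the bud developing xylem had their largest median difference in bud xylem parenchyma, at 0.45, with 76.7% of them above 0 against 44.7% of all regions. Phloem parenchyma of bud followed at 0.35, then vascular sclerenchyma at 0.32 in seedling and 0.26 in early seedling. Root metaxylem stood at 0.18 and 0.16. The same regions were lowest in stomatal precursors, at -0.41 in seedling and -0.39 in bud, and in bud mesophyll at -0.39. Regions higher in the bud precursor had their largest medians in the seedling procambial meristem and in bud mesophyll, 0.25 in both, and in the seedling stomatal precursor at 0.24. They were lowest in bud xylem parenchyma and in large parenchyma of the seedling, -0.33 in both, and in seedling vascular sclerenchyma at -0.25. Bud xylem parenchyma and seedling vascular sclerenchyma thus lay on the developing side, and the seedling stomatal precursor and bud mesophyll on the precursor side. In the procambial meristem the precursor set had a median of 0.25 in seedling and 0.22 in early seedling, and the developing set had 0.21 in bud. The early seedling column had 69 distinct values. Medians of the other set are not given for these columns, so no division by organ is read from them.

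**Figure D5:**
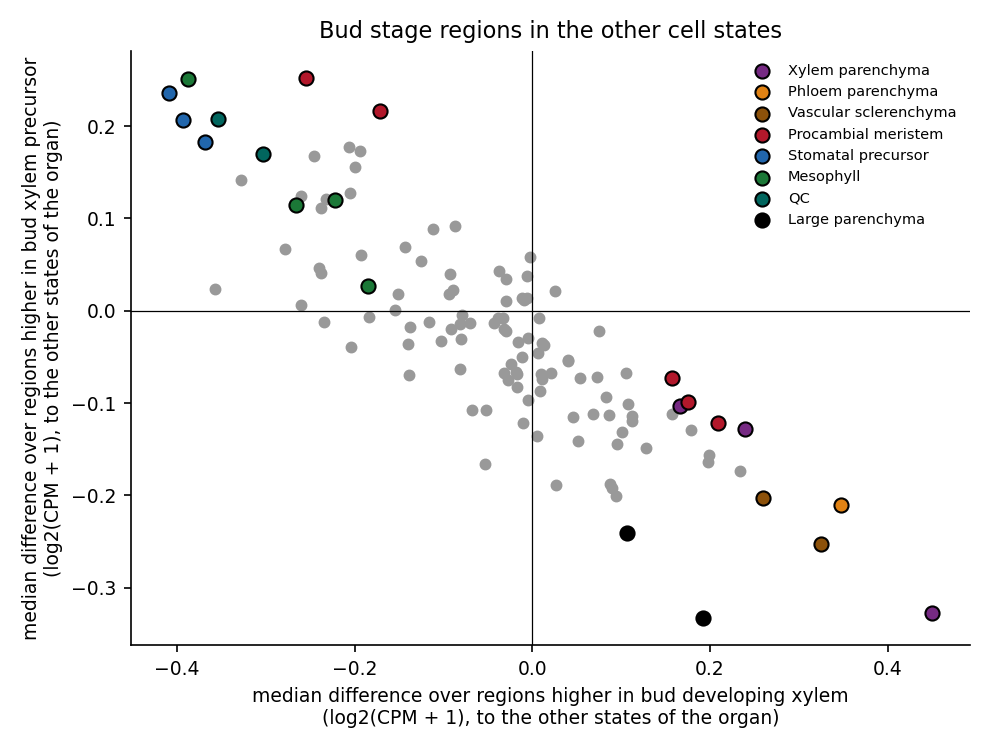
Median difference from the other states of the organ (log2(CPM + 1)) of the regions higher in bud developing xylem and of those higher in bud xylem precursor, 1 point per cell state outside the 4 xylem columns. The 4 xylem columns were left out of the reference. The developing set is on the horizontal and the precursor set on the vertical axis; bud xylem parenchyma lies at 0.45 and -0.33, at the lower right.

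Of the 861 shoot xylem regions, 828 (96.2%) differed by at most 1 between the bud columns, against 94.0% of all regions, a similar share. Beyond 1, 32 were higher in the developing xylem and 1 in the precursor. Over all regions these classes held 3.64% and 2.38%. The median over the 861 was 0.19 with 603 above 0, against a median of -0.02 over all regions. In the seedling columns 70.0% were above 0, against 47.8% of all regions. Shoot xylem regions were chosen for being high in all 4 columns, which limits how far the stages could differ in them.

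The shoot xylem regions also lay near each other in the genome, a feature the choice did not use. Among those with another tested region within 5000 bases, the nearest region was itself a shoot xylem region for 140 of 853 (16.4%), against 0.661% over all regions. The nearest region's mean xylem difference had a median of 0.64, against -0.03 over all regions. Gaps were alike, with a median of 375 bases for shoot xylem regions and 405 for all, and no neighbouring regions overlapped. In all, 267 of the 861 (31.0%) lay in 104 runs of at least 2 shoot xylem regions, and 16 runs held 4 or more. Neighbouring regions are not independent observations. By chromosome the share of tested regions that were shoot xylem regions ran from 0.470% on chromosome 5 to 0.890% on chromosome 10.

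The longest run held 7 shoot xylem regions among 13 tested regions on chromosome 8, from 20973426 to 20993279, a span of 19854 bases. Its highest region, at 20977276 to 20977776, had 23.9 CPM in the bud precursor, 28 in the bud developing xylem, 31.3 in the early seedling precursor and 36.1 in the seedling developing xylem. Crown root stele initials followed at 25.7 CPM, above the bud precursor and below the other 3 columns. At the far end of the run, 20992779 to 20993279, the xylem CPM was 10.0, 24.0, 10.3 and 15.8 in the same order, and no other column exceeded 6.17. Regions of one run thus differed in how far they were shared with other states.

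A run on chromosome 9, from 14583451 to 14591178, held 6 shoot xylem regions among 7 tested regions in 7728 bases. The CPM at 14588372 to 14588872 was 39.3 in the bud precursor, 37.0 in the bud developing xylem, 35.4 in the early seedling precursor and 37.0 in the seedling developing xylem. Panicle PBM had 30.6 there, and the authors' list called the region broadly accessible. The neighbour at 14587275 to 14587775 had 40.8, 42.8, 44.1 and 41.0 CPM, with panicle PBM at 42.2 and crown root stele initials at 41.6 inside the range of the 4 columns. At 14590678 to 14591178 the xylem CPM was lower, with 7.88, 8.66, 9.10 and 14.4, yet above panicle PBM at 6.73. One more run, on chromosome 3, from 1530205 to 1541450, held 6 of 8 regions.

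The authors' own list of cell states per region gave a narrower account. It named the bud precursor for 532 regions, the bud developing xylem for 574, the early seedling precursor for 226 and the seedling developing xylem for 798, in all 1317 regions. All 4 were named in 84 of these (6.38%), and 94 (7.14%) named no state outside the 4. The median number of states named beside a region was 8. The bud precursor shared 303 regions with the seedling developing xylem (57.0% of its own list and 38.0% of the other) and 215 with the bud developing xylem (40.4% and 37.5%). The early seedling precursor shared 158 with the seedling developing xylem, 69.9% of its own list and 19.8% of the other. The seminal root procambial meristem shared 376 regions with the seedling developing xylem and 284 with the bud developing xylem. Both were more than any xylem state shared with these columns, at most 303 and 269. With the bud precursor it shared 231 and with the early seedling precursor 109, fewer than the closest xylem list did, at 303 and 163. The list and the CPM table come from the same nuclei, so their overlap is no separate evidence. Of the 861 shoot xylem regions 765 were in the authors' list, 368 of them as specific to states (48.1%, against 34.8% of all listed regions tested) and 397 as broadly accessible. Among the specific ones, 327 named at least 1 of the 4 xylem states and 68 named all 4.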

How the data were processed

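Single-nucleus chromatin accessibility was measured in 18 libraries of 9 organ groups. The labels give no cell counts, and BWA and MACS2 are named in the submitters' processing notes without role or version. The authors deposited 1 table of log2 CPM values for 128764 regions in 128 cell states, and a list that assigns 120048 regions to states or calls them broadly accessible. Values ran from -3.24 to 6.21 and columns had nearly one distribution, so a column shows relative accessibility only. Depth per column is unknown, and how many nuclei stand behind a column was not given in the sources used here.

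Values were raised to powers of 2, 1 was added, and log2 was taken again. A region was kept where some state of the organ reached 1 CPM. limma 3.58.1 (R 4.3.3) tested 1 difference per organ with a mean-variance trend, two-sided, and was tested on simulated data. Named regions were the 10 with the highest value of their lowest difference and the 10 with the largest stage difference each way, with a CPM of at least 5 in the columns that are high, the first 5 of each in the text; regions of the 2 longest runs, the 2 regions lower in all columns and the seventh of the first 10 were chosen after their values were seen. The members and the lists were chosen with earlier results of these data known. Alternatives were other pseudocounts, the deposited log2 values, the median of the other states, leaving out each organ, averaging both seedling groups, and the authors' lists. Gene, marker and motif lists planned for this work, and all sequences, were not used here, since the build of the coordinates is not given and the available annotation is of another assembly. Coordinates are 1-based.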

Additional observations from a re-analysis of the deposited data

How the results depend on the processing

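No paired analysis was possible because the columns pool the libraries of an organ and carry no replicate number. The balance of higher to lower regions turned over in 3 columns: the higher share of the bud precursor fell from 78.4% to 48.6% with 0.1 added and 47.4% on the deposited scale, that of the seedling developing xylem from 53.2% to 48.8% and 49.1%, and that of the early seedling precursor went from 48.7% to 79.8% with 5 added and 53.1% against the median of the other states. Single regions were recomputed for the lists of shoot xylem and stage regions taken by rule, and none of them changed sign. Of these values 207 stayed on the same side of their limit, with 3 precursor regions falling below 1 with 5 added to the CPM. Run regions outside those lists and the regions lower in all 4 columns were not recomputed. Counts by size moved with the scale; pairs give higher and then lower. With 0.1 added the counts were 3601 and 3807 in the bud precursor, 9801 and 7709 in the bud developing xylem, 11577 and 13161 in the early seedling precursor and 11394 and 11936 in the seedling developing xylem. Higher and lower in all 4 columns were then 1420 and 40, and the bud stage counts 10773 for developing and 8722 for precursor. With 5 added the counts were 280 and 0, 1318 and 21, 1754 and 443, and 2258 and 436 in the same order, 141 and 0 in all 4 columns, and 588 and 93 by stage. On the deposited log2 scale they were 4198 and 4666, 10774 and 8683, 12731 and 14152, and 12458 and 12931, with 1529 and 63 in all 4 columns and 11316 and 9920 by stage. The share above 0 in root protoxylem was 26.0% in crown root and 25.2% in seminal root with 0.1 added, and 26.5% and 25.9% on the deposited scale. The cause of these shifts was not tested beyond the constant itself, which sets the weight of low values. With the median of the other states as reference, limma called 4021 lower regions, and 1 was lower in all 4 columns. Leaving out 1 organ at a time, the limma calls ran from 4376 to 9726 higher and from 1707 to 9552 lower, regions higher in all remaining columns from 880 to 3772, and regions lower in all of them from 3 to 1706. Fewer columns must pass in each of these. With both seedling groups averaged 3033 regions were lower. A CPM of at least 5 in the higher column, added after seeing the data, gave 2838 and 1423 stage regions. For the 84 regions that the authors listed for all 4 states, the shares above 0 were 11.9% in crown root protoxylem, 64.3% in seminal root metaxylem and 14.3% in seminal root protoxylem, with the cause not tested. Subtracting organ means gave 64.6% and 57.5% for the seedling stage shares. Depth is unknown, so no interval of a single level can be given, and values of 1 CPM or less in the shallow columns may rest on few reads.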

Other observations

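In leaf and seed the shoot xylem regions stood closer to the rest of the organ. In leaf the highest state was the companion cell, the phloem cell that loads the sieve tube, with a median difference of 0.17 on the log2(CPM + 1) scale over the 861 regions, and the leaf vascular cell had 0.16. In the early seed the highest was the radicle meristem, the embryonic root tip, with 0.33.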
